A study of Mus musculus with 8 samples.

Results

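The 34 genes described here encode the liver's machinery for taking up, burning, making and storing glucose: glycolysis, gluconeogenesis, fructose entry, the pentose phosphate pathway and glycogen metabolism. They were chosen by symbol, from knowledge of the pathways and not by a measured value, and all 34 of 34 were present among the 14317 mouse genes of the table. Liver RNA was sequenced from 4 Con-Veh and 4 Con-DHT female mice, 1 library per mouse. All 8 adult mice were kept on a western diet (WD) rich in fat, fructose and cholesterol for 8.5 weeks. The labels give the genotype as WT. The study's methods describe the animals as carrying a floxed allele, and the Con groups as those without its hepatic deletion. Con-DHT mice carried a 10 mm silastic pellet of dihydrotestosterone (DHT), an androgen that is not converted to estrogen, and Con-Veh mice an empty pellet. The methods describe an overnight fast before the livers were taken. DHT in these mice acts on the whole animal, so the libraries do not separate an action on the liver from one that reaches it through other organs.

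In the liver, glucose enters through a membrane transporter and is phosphorylated, after which it can be stored as glycogen, sent through the pentose phosphate pathway, or broken down to pyruvate. During a fast the flow reverses: glycogen is degraded, and new glucose is built from lactate, amino acids and glycerol and is released into the blood. Glycolysis and gluconeogenesis share most of their enzymes and differ at a few irreversible steps, where the regulated enzymes act in pairs of opposed direction.

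Each value below is a normalized read count, that is, the reads of a gene divided by the size factor of its library. Libraries held between 13123962 and 17815944 reads on mouse genes and 3 reads corresponded to a value between 2.61 and 3.30. The lowest value of any of the 34 genes in any library was 91.4, for G6pdx. Of 14312 genes tested with limma, 1032 (7.21%) had an adjusted p of at most 0.05, which is the threshold used throughout. All 7 hepatocyte markers listed were in the table and none was at 0 in any library, with albumin (Alb) at a mean of 928458 in Con-Veh against 640916 in Con-DHT. Of the 7, transferrin (Trf) was lower in Con-DHT by limma, edgeR and DESeq2, with means of 78245 in Con-Veh against 46337 in Con-DHT, groups that did not overlap and a limma adjusted p of 0.0134. The other 6 did not pass by any of these tools, and the summed values of the 7 ranged from 857301 to 1649830 in Con-Veh and from 863091 to 1038220 in Con-DHT. Markers of other liver cells differed too. Of 7 macrophage markers 4 were lower in Con-DHT by limma (Clec4f, Cd68, Vsig4 and Cd5l), with sums of 6335 to 7836 in Con-Veh and 4295 to 5826 in Con-DHT. All 7 had a negative log2 fold change and an unadjusted limma p of at most 0.05, and 5 passed by DESeq2. Of 6 endothelial markers 2 were lower by limma (Stab2 and Lyve1), with sums of 3363 to 3791 and 2534 to 2846. An unadjusted limma p of at most 0.05 was found for 4 of these 6, and 1 passed by edgeR and 2 by DESeq2. In whole liver, fewer cells of a type and less RNA per cell cannot be told apart, and the part of these cell types in the results below was not tested.

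To show which of these transcripts the fasted liver held most of, values were divided by exon length. Per kilobase of exon, Pck1 stood at the top of the 34 genes in Con-Veh, at 18426. It encodes cytosolic phosphoenolpyruvate carboxykinase, the enzyme that commits carbon to gluconeogenesis. Fbp1, the fructose-1,6-bisphosphatase of the same pathway, followed at 7917, and Ldha, a lactate dehydrogenase subunit, at 5979 per kilobase. G6pdx, the gate of the pentose phosphate pathway, was the lowest at 34.2. With this scale averaged over the 8 libraries of both groups, 24 of the 34 genes lay in the top 10% of all tested genes. All 34 then lay above the median gene. G6pdx was just above it, at percentile 51.3, with 34.2 per kilobase in Con-Veh and 64.9 in Con-DHT. Neighbours in this order often overlapped between mice, as the plot of levels shows.

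**Figure D1:**
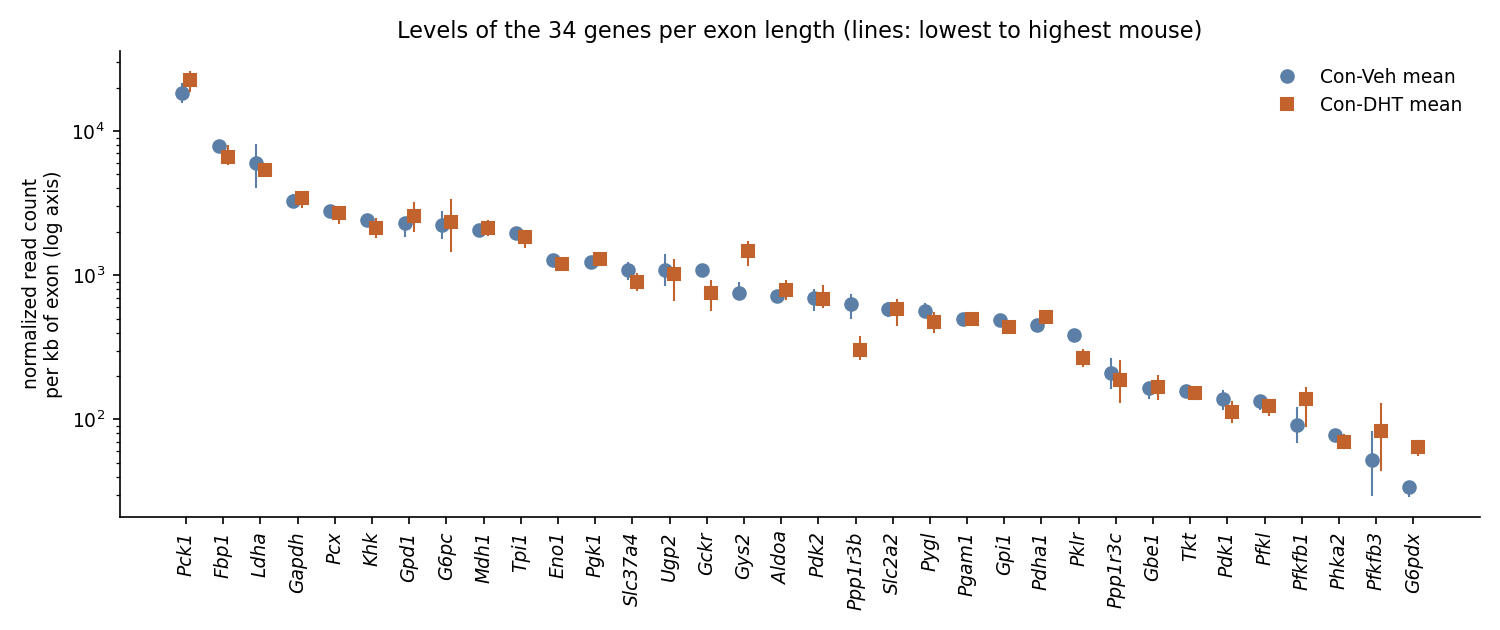
Mean normalized read count per kilobase of exon (log axis) of the 34 genes in Con-Veh (blue circles) and Con-DHT (orange squares) livers, 4 mice each, with lines from the lowest to the highest mouse. Pck1 is highest and G6pdx lowest in Con-Veh, and the groups do not overlap for Gys2, Ppp1r3b, Gckr, Pklr and G6pdx and, by a small margin, for Gpi1 and Pdha1.

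The comparison of Con-DHT with Con-Veh asks how androgen excess alters glucose handling genes in the liver on a WD. Of the 34 genes, 5 (14.7%) had a limma adjusted p of at most 0.05, against 7.21% of all genes tested. Gys2 and G6pdx rose (2 of 34, against 4.6% of all genes), and Ppp1r3b, Pklr and Gckr fell (3 of 34, against 2.61%). The changed genes were thus spread over glycogen synthesis (2 of 5 genes), the pentose phosphate pathway (1 of 2), lower glycolysis (1 of 6) and glucose uptake and its control (1 of 2), while gluconeogenesis from pyruvate (0 of 4), glucose release (0 of 2), upper glycolysis (0 of 6), pyruvate dehydrogenase and its kinases (0 of 3) and glycogen breakdown (0 of 2) had none. At an unadjusted p of at most 0.05 there were 12 of the 34 genes (35.3%), against 23.2% of all genes. The groups did not overlap for 7 (20.6%), against 15.1% of all genes, and the 2 besides the 5 already named were Gpi1 and Pdha1. The median log2 fold change of the 34 was -0.05, against -0.01 over all genes tested. edgeR and DESeq2 on the recovered reads each had the same 5 genes at an adjusted p of at most 0.05, where they had 7.15% and 11% of all genes.

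**Figure D2:**
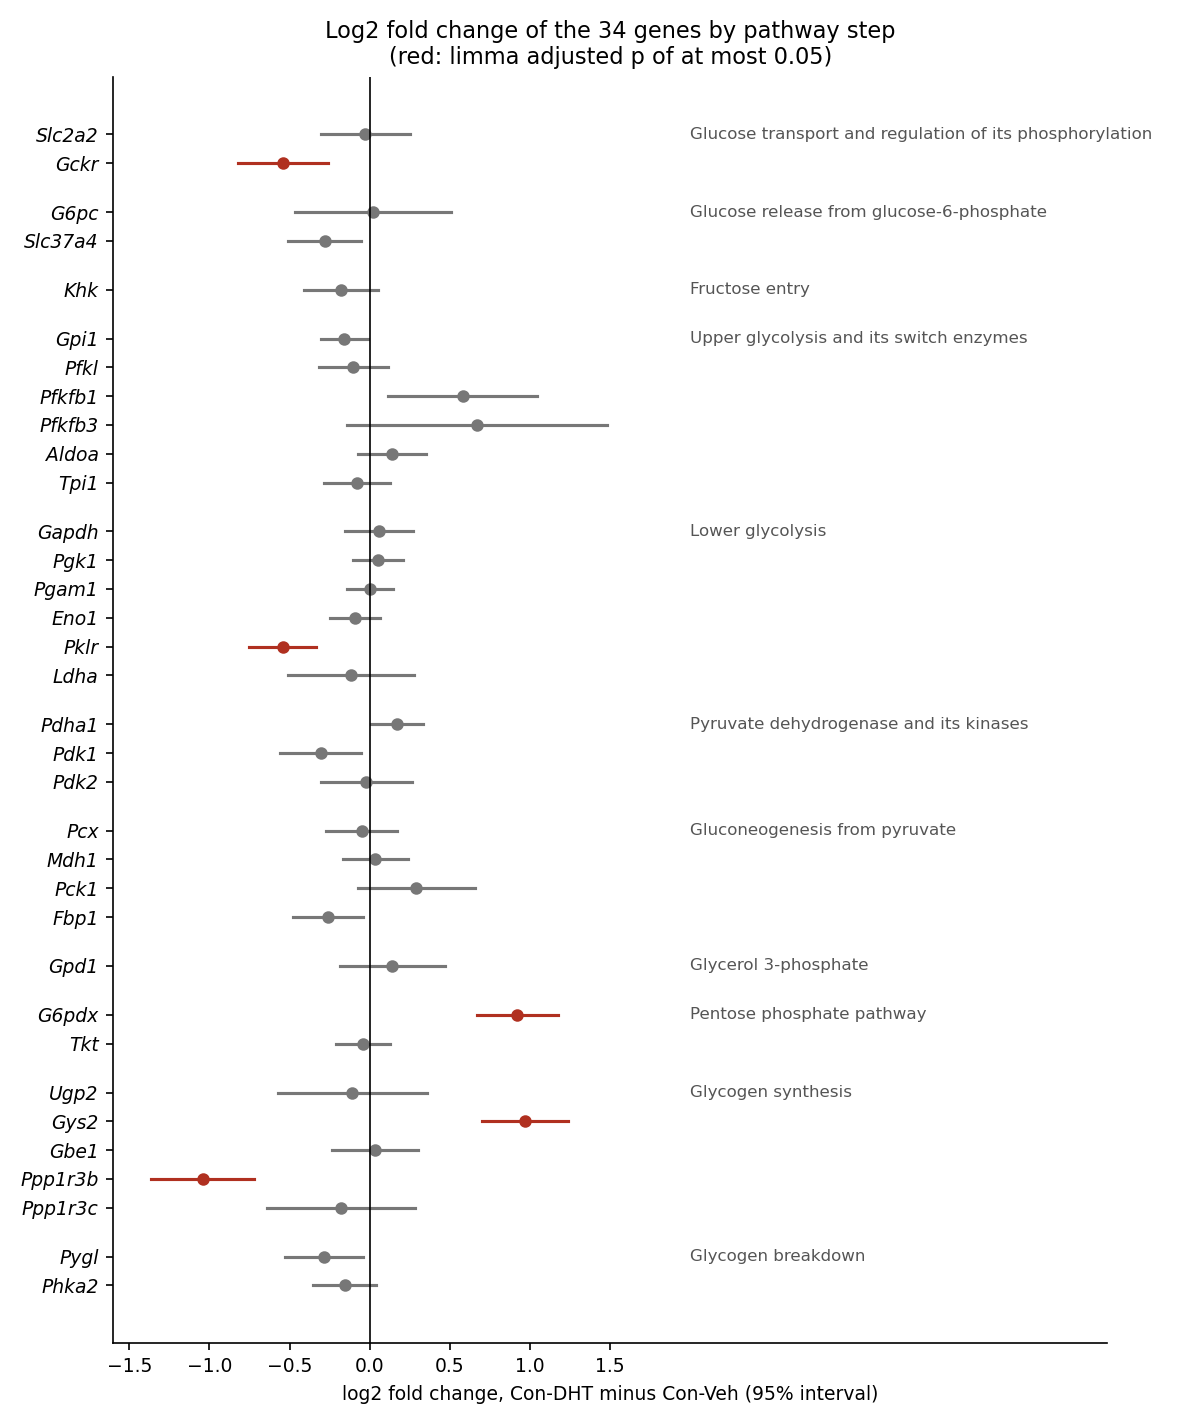
Log2 fold change (Con-DHT minus Con-Veh, horizontal axis) of each of the 34 genes with its 95% interval from limma, 4 mice per group, grouped by pathway step. Gys2 and G6pdx (red) lie right of 0 and Gckr, Pklr and Ppp1r3b (red) left of it, and the widest interval, from -0.14 to 1.48, is that of Pfkfb3.

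Of the 29 genes that did not pass the test, 25 had a 95% interval that stayed within 1.5-fold in either direction and 27 within 2-fold. For 7 of the 29, the interval did not include 0 although the adjusted p missed the threshold. Scaling the libraries by the ERCC spike-ins in place of the size factors raised the median log2 fold change of all genes by 0.20. Such a scaling moves the log2 fold change of every gene by about the same amount. The spike-in factors also differed within the groups, from 0.67 to 1.49 in Con-Veh and from 0.85 to 1.02 in Con-DHT. These differences enter the spread between mice of every gene, and their part in the adjusted p below was not tested. Under that scaling, where 4.45% of all genes passed, Gys2 and G6pdx passed the limma test and Ppp1r3b, Pklr and Gckr kept their direction without passing it, with adjusted p of 0.088, 0.883 and 0.884.

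The largest fall and the largest rise among the 34 genes both stood in glycogen synthesis. Gys2 encodes the liver isoform of glycogen synthase, the enzyme that lengthens glycogen chains. In the order of replicates 1 to 4, as for each gene below, its values were 1862, 1819, 2343 and 1943 in Con-Veh against 4036, 4508, 3974 and 3110.0 in Con-DHT. The lowest Con-DHT mouse lay above the highest Con-Veh mouse, and the ratio of the means was 1.96. The log2 fold change was 0.97 ± 0.12 (SE) with an adjusted p of 0.00135 by limma. It passed the test without any of the 8 libraries, with log2 fold changes between 0.89 and 1.07.

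Ppp1r3b encodes the GL subunit, which brings protein phosphatase 1 to the glycogen particle, where the phosphatase activates glycogen synthase. Its values were 3484, 4545, 3166 and 4426 in Con-Veh against 1622, 2309, 1954 and 1684 in Con-DHT. The groups did not overlap and every Con-DHT mouse was below every Con-Veh mouse. Its log2 fold change was -1.04 ± 0.14 (SE), a ratio of 0.48, with a limma adjusted p of 0.00247. Glycogen synthase and the phosphatase subunit that switches it on thus moved in opposite directions in the same livers. The ratio of Gys2 to Ppp1r3b, a pair chosen after the values were seen and therefore not tested, was 0.528 ± 0.152 in Con-Veh and 2.08 ± 0.283 in Con-DHT (SD, n = 4 each).

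The other glycogen synthesis genes did not pass the test. Ppp1r3c, another glycogen-targeting subunit of protein phosphatase 1, averaged 571 ± 109 in Con-Veh against 515 ± 155 in Con-DHT (SD, n = 4), which gave a log2 fold change of -0.18 and a 95% interval of -0.64 to 0.28. Ugp2, which makes the UDP-glucose that glycogen synthase consumes, averaged 3358 ± 764 in Con-Veh against 3142 ± 803 in Con-DHT and had an interval of -0.57 to 0.35. Gbe1, the branching enzyme, had means of 879 in Con-Veh against 903 in Con-DHT and an interval of -0.24 to 0.30. None of these 3 intervals reached the size of the changes of Gys2 and Ppp1r3b.

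Neither gene of glycogen breakdown passed the test. Pygl, the liver glycogen phosphorylase, read 3831, 4377, 3746 and 3751 in Con-Veh against 3803, 3521, 2881 and 2772 in Con-DHT. The lower mice were in Con-DHT, but replicate 1 of Con-DHT lay inside the Con-Veh range, and the log2 fold change of -0.28 ± 0.11 (SE) had a limma adjusted p of 0.153. Phka2, the liver regulatory subunit of phosphorylase kinase, had means of 472 in Con-Veh against 424 in Con-DHT and an interval of -0.35 to 0.04.

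**Figure D3:**
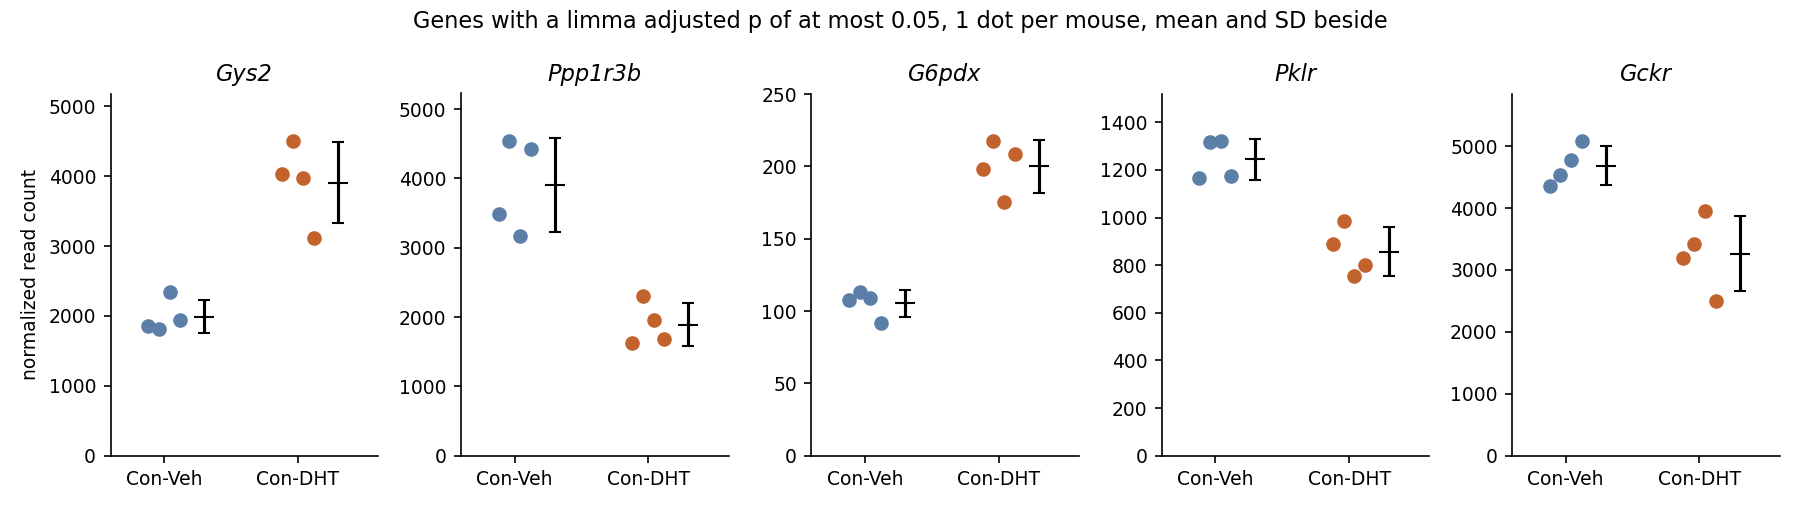
Normalized read counts (vertical axes from 0) of Gys2, Ppp1r3b, G6pdx, Pklr and Gckr, 1 dot per mouse, for Con-Veh (blue) and Con-DHT (orange), with the mean and SD of 4 mice beside the dots. In each of the 5 panels the dots of the groups do not overlap.

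At the entry of glucose, Gckr fell. It encodes a regulatory protein of the hepatocyte that restrains the phosphorylation of glucose in the fasted state. Its values were 4357, 4532, 4772 and 5088 in Con-Veh against 3187, 3422, 3947 and 2496 in Con-DHT. No Con-DHT mouse reached the lowest Con-Veh mouse. The log2 fold change was -0.54 ± 0.13 (SE), a ratio of 0.70, with a limma adjusted p of 0.0302. Of the 5 changes this one depended most on single libraries. The limma adjusted p rose to 0.0648, 0.0667 and 0.0847 without Con-Veh replicate 2, 3 or 4, and to 0.0714 and 0.058 without Con-DHT replicate 1 or 2, while the log2 fold change stayed between -0.64 and -0.42.

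Slc2a2, the GLUT2 transporter through which glucose crosses the hepatocyte membrane, had overlapping groups. It read 3019, 3549, 3679 and 3258 in Con-Veh against 3886, 3674, 3211 and 2599 in Con-DHT. The Con-DHT mice lay on both sides of the Con-Veh range, and the 95% interval of the log2 fold change ran from -0.30 to 0.25.

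The release of glucose from glucose-6-phosphate needs a phosphatase and a transporter. G6pc, the catalytic subunit of glucose-6-phosphatase, read 6593, 4349.8, 4948 and 5699 in Con-Veh against 8039.9, 3575, 5170.4 and 5743 in Con-DHT. Con-DHT mice held both the lowest and the highest of these values, and the interval of -0.47 to 0.50 around a log2 fold change of 0.02 leaves the direction undecided. Slc37a4, the transporter that carries glucose-6-phosphate to the phosphatase, had means of 3126 ± 340.0 in Con-Veh against 2572 ± 273 in Con-DHT (SD, n = 4) and a limma adjusted p of 0.13.

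Fructose, which this diet supplies, is trapped by ketohexokinase (Khk). Khk read 4075, 4535, 4263 and 4400.4 in Con-Veh against 4258, 4403, 3376 and 3313 in Con-DHT. Replicates 3 and 4 of Con-DHT were below all Con-Veh mice and replicates 1 and 2 were not, with a log2 fold change of -0.18 ± 0.10 (SE) and a limma adjusted p of 0.336.

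In upper glycolysis the paired kinase and phosphatase enzymes that set fructose-2,6-bisphosphate, a strong activator of phosphofructokinase, had wide spreads. Pfkfb1, the liver form, read 484, 282, 379 and 329 in Con-Veh against 360.1, 630.0, 563 and 665 in Con-DHT. Con-DHT replicate 1 lay inside the Con-Veh range and the other Con-DHT mice were above it. The log2 fold change was 0.58 ± 0.21 (SE), with adjusted p of 0.129 by limma, 0.112 by edgeR and 0.0545 by DESeq2. Without Con-DHT replicate 1 the limma adjusted p was 0.0331 and the log2 fold change 0.77. Pfkfb3, an inducible form, had a coefficient of variation (SD over mean) of 46.3% for Con-Veh against 42.9% for Con-DHT, and its interval was the widest of the 34.

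The remaining genes of upper glycolysis were steadier. Gpi1, which interconverts glucose-6-phosphate and fructose-6-phosphate, read 3191, 3034, 3119.6 and 3269 in Con-Veh against 2769, 2828, 3019 and 2696 in Con-DHT. Its groups did not overlap, but the difference was small, with a log2 fold change of -0.16 and a limma adjusted p of 0.175. Pfkl, the liver phosphofructokinase, had means of 891 in Con-Veh against 832 in Con-DHT, Aldoa, an aldolase, 2092 in Con-Veh against 2315 in Con-DHT, and Tpi1, triose phosphate isomerase, 5366 in Con-Veh against 5103 in Con-DHT. None of these 3 had an interval that left 0 out.

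In lower glycolysis the change stood at the last, irreversible step. Pklr encodes the pyruvate kinase of liver and red cells, which turns phosphoenolpyruvate into pyruvate. Its values were 1165, 1317, 1323 and 1175 in Con-Veh against 889, 986, 755 and 799 in Con-DHT. All 4 Con-DHT mice were below all 4 Con-Veh mice. By limma the log2 fold change was -0.54 ± 0.09 (SE), a ratio of 0.69, with an adjusted p of 0.00776, and the gene passed the test without any of the 8 libraries. None of 5 red cell markers passed by limma or edgeR, 2 had an unadjusted limma p of at most 0.05, and 1, Alas2, passed by DESeq2. Hba-a1 had means of 4473 in Con-Veh against 2788 in Con-DHT and Alas2 of 492 in Con-Veh against 838 in Con-DHT, and the summed 5 markers ranged from 4670 to 11538 in Con-Veh and from 4337 to 8676 in Con-DHT. Their part in the Pklr values was not tested.

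Pklr has 2 start sites in RefSeq on build GRCm38.p6, on the plus strand of chromosome 3. The upstream one is known as the red cell start and the downstream one as the liver start, and the gene's reads do not tell them apart. The bases before each start are shown because the liver promoter of this gene is the textbook site of the carbohydrate response element, through which glucose raises Pklr transcription. Capitals mark a match to that element as the letters CACGNG, 5 further bases and CNCGTG, searched on both strands. The upstream window is chr3:89135892-89136141, the 250 bases before the start at 89136142, and the downstream one chr3:89136373-89136571, 199 bases within the 250 before the start at 89136623, left off where annotated exon sequence begins. The downstream window lies in the first intron of the longer transcript.
Pklr upstream start: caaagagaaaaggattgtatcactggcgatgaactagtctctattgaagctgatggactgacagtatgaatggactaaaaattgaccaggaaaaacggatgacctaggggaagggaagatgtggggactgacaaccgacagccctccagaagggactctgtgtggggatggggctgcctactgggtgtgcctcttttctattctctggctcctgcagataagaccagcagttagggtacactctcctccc
Pklr downstream start: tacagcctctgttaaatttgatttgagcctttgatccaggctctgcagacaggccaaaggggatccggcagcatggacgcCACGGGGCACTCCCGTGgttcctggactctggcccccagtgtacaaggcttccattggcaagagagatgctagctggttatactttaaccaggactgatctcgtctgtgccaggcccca
The downstream window held 1 match, from 170 to 154 bases before its start, and the upstream window none. Among 32851 RefSeq promoters, 13 (0.0396%) held the same letters in the 250 bases before the start. The letters were chosen after the windows were seen, so this share holds for these exact letters only and is not a test. The match is a description of letters and not of binding.

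Gckr (GRCm38.p6 start at chromosome 5, 31297563) and G6pdx (chromosome X, 74428880, minus strand) had 1 window each in the same table, and Gys2 and Ppp1r3b none. The motifs were chosen after the windows were seen. Neither window held the carbohydrate response letters. Gckr had 1 match to the HNF1-type letters GTTAAT, from 59 to 54 bases before its start, present in 6.43% of promoters. G6pdx had 1 match to the GC box GGGCGG, present in 32.7% of them. The letters CACGTG (6.02% of promoters), TTCNNNGAA (7.02%) and TGACGTCA (1.55%) were in none of the 4 windows of Pklr, Gckr and G6pdx.

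The other 5 genes of lower glycolysis did not pass the test. Several of them have processed pseudogenes, and reads that mapped to more than 1 place were not counted, so that their levels are uncertain to that extent. Gapdh had means of 13505 ± 933 in Con-Veh against 14085 ± 1193 in Con-DHT, Pgk1 2793 ± 129.6 in Con-Veh against 2894 ± 177 in Con-DHT, and Pgam1 992 ± 34.9 in Con-Veh against 993 ± 46.2 in Con-DHT (SD, n = 4 each). These 3, which carry carbon between the triose phosphates and 2-phosphoglycerate, had log2 fold changes of 0.06, 0.05 and 0.00. Eno1, an enolase, averaged 6819 in Con-Veh against 6401 in Con-DHT, with an interval of -0.25 to 0.07. Ldha read 26384, 21092, 13458 and 18224 in Con-Veh against 17294, 16774, 17851 and 19073 in Con-DHT. Its Con-Veh mice spread over the whole Con-DHT range and beyond, with a coefficient of variation of 27.3% for Con-Veh against 5.56% for Con-DHT. Ldha was an exception in this respect, since the coefficient of variation was higher in Con-DHT for 28 of the 34 genes, and its median over the 34 was 8.00% for Con-Veh against 12.6% for Con-DHT.

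Pyruvate enters the mitochondrion to be oxidised by pyruvate dehydrogenase or carboxylated for gluconeogenesis. Pdha1, the catalytic subunit of pyruvate dehydrogenase, read 1620.4, 1791, 1708 and 1636 in Con-Veh against 1895, 2109.7, 1793 and 1819.7 in Con-DHT. The groups just failed to overlap, with a log2 fold change of 0.17 ± 0.07 (SE) and a limma adjusted p of 0.19. Pdk1 and Pdk2 encode kinases that switch the enzyme off. Pdk1 had means of 1081 in Con-Veh against 876 in Con-DHT with an adjusted p of 0.138, and Pdk2 means of 2202 in Con-Veh against 2173 in Con-DHT with an adjusted p of 0.941, both by limma.

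The genes of gluconeogenesis from pyruvate did not pass the test. Pcx, the pyruvate carboxylase that opens the pathway, read 12749.7, 14373, 12551 and 13300.4 in Con-Veh against 13265, 14144, 10972 and 12946 in Con-DHT. Pck1 read 73232, 66197, 54782 and 58517 in Con-Veh against 85379, 70730.3, 88093 and 65480.1 in Con-DHT. Con-DHT replicates 1 and 3 were above all Con-Veh mice and replicates 2 and 4 within their range. The log2 fold change of Pck1 was 0.29 ± 0.16 (SE), with a 95% interval of -0.07 to 0.65 and a limma adjusted p of 0.322. Fbp1, which reverses the phosphofructokinase step, read 13651, 13503, 12778 and 13969.6 in Con-Veh against 10816, 10977, 13307 and 10113 in Con-DHT. Con-DHT replicate 3 lay inside the Con-Veh range and the other 3 below it, with a log2 fold change of -0.26 ± 0.10 (SE) and a limma adjusted p of 0.147. Mdh1, the cytosolic malate dehydrogenase that delivers carbon leaving the mitochondrion, averaged 5277 in Con-Veh against 5429 in Con-DHT, with an interval of -0.17 to 0.24. Gpd1, which links glycerol 3-phosphate to the triose phosphates, averaged 6851 in Con-Veh against 7613 in Con-DHT, with an interval of -0.19 to 0.47.

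In the pentose phosphate pathway the entry gene rose. G6pdx encodes glucose-6-phosphate dehydrogenase, which makes NADPH in the step that commits glucose-6-phosphate to the pathway. Its values were 108, 113, 109 and 91.4 in Con-Veh against 198, 218, 176 and 209 in Con-DHT. The groups were far apart for their spread, with coefficients of variation of 9.01% for Con-Veh against 9.09% for Con-DHT. The log2 fold change was 0.92 ± 0.11 (SE), a ratio of 1.90, with a limma adjusted p of 0.00131, and it passed without any of the 8 libraries. Tkt, the transketolase of the non-oxidative branch, had means of 1163 ± 78.4 in Con-Veh against 1130.1 ± 73.1 in Con-DHT (SD, n = 4), with an interval of -0.21 to 0.13.

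The 5 changed genes lie on 5 chromosomes. On build GRCm38, Gys2 (ENSMUSG00000030244) lies on chromosome 6, from 142422613 to 142473109, Ppp1r3b (ENSMUSG00000046794) on chromosome 8, from 35375739 to 35388139, G6pdx (ENSMUSG00000031400) on chromosome X, from 74409483 to 74429194, Pklr (ENSMUSG00000041237) on chromosome 3, from 89136142 to 89146784, and Gckr (ENSMUSG00000059434) on chromosome 5, from 31297443 to 31327314. Reads were counted over the exons of each gene.

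Ratios of 2 genes within a library compare opposed steps or related enzymes without library scaling. For 6 such ratios an exact two-sided permutation test of 4 against 4 mice was run, whose smallest possible p is 0.0286. The ratio of Pck1 to Pklr, the enzymes that make and consume phosphoenolpyruvate, was 51.1 ± 8.83 in Con-Veh and 91.6 ± 19.5 in Con-DHT (SD, n = 4). The ratio of Gys2 to Pygl, glycogen synthase to glycogen phosphorylase, was 0.511 ± 0.0873 in Con-Veh and 1.21 ± 0.145 in Con-DHT. Neither pair of groups overlapped, and both reached the smallest p of the exact test, 0.0286, which became 0.0857 after adjustment over the 6 ratios. With this smallest p, a ratio could pass after adjustment only if most of the 6 reached it together, so the adjusted test cannot decide for either ratio. Pdk1 to Pdk2 had an exact p of 0.0571 (adjusted 0.114) and Fbp1 to Pfkl one of 0.143 (adjusted 0.214). G6pc to Slc2a2 and Pfkfb1 to Pfkfb3 each had an exact p of 0.943.

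Beyond the 34 genes, 73 further genes of the same pathways were listed, of which 69 were in the table and tested. Of these, 7 were higher and 3 lower in Con-DHT at a limma adjusted p of at most 0.05 (14.5%), against 7.21% of all genes. Among the higher ones were Pkm, Aldoc, Eno2 and Pygb, which encode isoforms other than the main ones of hepatocytes. Pkm, the pyruvate kinase of muscle and most other tissues, read 553, 636, 573 and 519 in Con-Veh against 1158, 1075, 1028 and 1174 in Con-DHT. The groups did not overlap, and the log2 fold change was 0.96 ± 0.08 (SE) with a limma adjusted p of 0.000236. Since Pklr fell while Pkm rose, the ratio of Pkm to Pklr was 0.458 ± 0.0243 for Con-Veh against 1.31 ± 0.159 for Con-DHT (SD, n = 4), a pair chosen after the values were seen and not tested. Per kilobase of exon, Pkm stood at 114 and Pklr at 385 in Con-Veh, and at 222 and 265 in Con-DHT.

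Aldoc, Eno2 and Pygb rose at low levels. Aldoc, an aldolase typical of brain, read 35.2, 45.4, 52.9 and 50.5 in Con-Veh against 93.2, 73.5, 64.3 and 119.6 in Con-DHT, and Eno2, the neuronal enolase, 53.9, 76.2, 58.9 and 67.0 in Con-Veh against 168, 115, 85.7 and 95.7 in Con-DHT. Pygb, the brain form of glycogen phosphorylase, had means of 157 ± 14.7 in Con-Veh against 219 ± 24.3 in Con-DHT (SD, n = 4). The limma adjusted p was 0.0344 for Aldoc, 0.0454 for Eno2 and 0.0325 for Pygb. Several other listed isoforms, picked out after the values were seen, did not pass by limma, edgeR or DESeq2. Among them were Pfkm and Pfkp, phosphofructokinases of muscle and platelets, with log2 fold changes of 0.14 and 0.07, Eno3 and Pgam2, muscle forms of enolase and phosphoglycerate mutase, with 0.09 and -0.29, Hk2, a hexokinase of muscle and fat, with 0.22, and Pygm, the muscle glycogen phosphorylase, with 0.79 and an interval of -0.38 to 1.97. Hk1 came nearer to the threshold, with groups that did not overlap and a log2 fold change of 0.42. Its adjusted p was 0.066 by limma and 0.0518 by DESeq2. Ldhb had a log2 fold change of 0.58, with adjusted p of 0.0958 by limma and 0.0537 by DESeq2. For Pdk3, at low means of 11.8 in Con-Veh against 24.6 in Con-DHT, the log2 fold change was 0.97 and the limma adjusted p 0.159.

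The fructose genes outside the 34 went both ways. Slc2a5, the fructose transporter GLUT5, read 60.5, 78.2, 113 and 92.3 in Con-Veh against 135, 264, 195 and 134 in Con-DHT, which gave a log2 fold change of 1.05 ± 0.25 (SE) and a limma adjusted p of 0.0312. Tkfc, the triokinase that handles the glyceraldehyde made from fructose, read 4753, 3854, 3302 and 3098 in Con-Veh against 2711, 2357, 2716 and 2494 in Con-DHT, which gave a log2 fold change of -0.53 ± 0.13 (SE) and a limma adjusted p of 0.032. In both genes the groups did not overlap, with Con-DHT above for Slc2a5 and below for Tkfc.

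**Figure D4:**
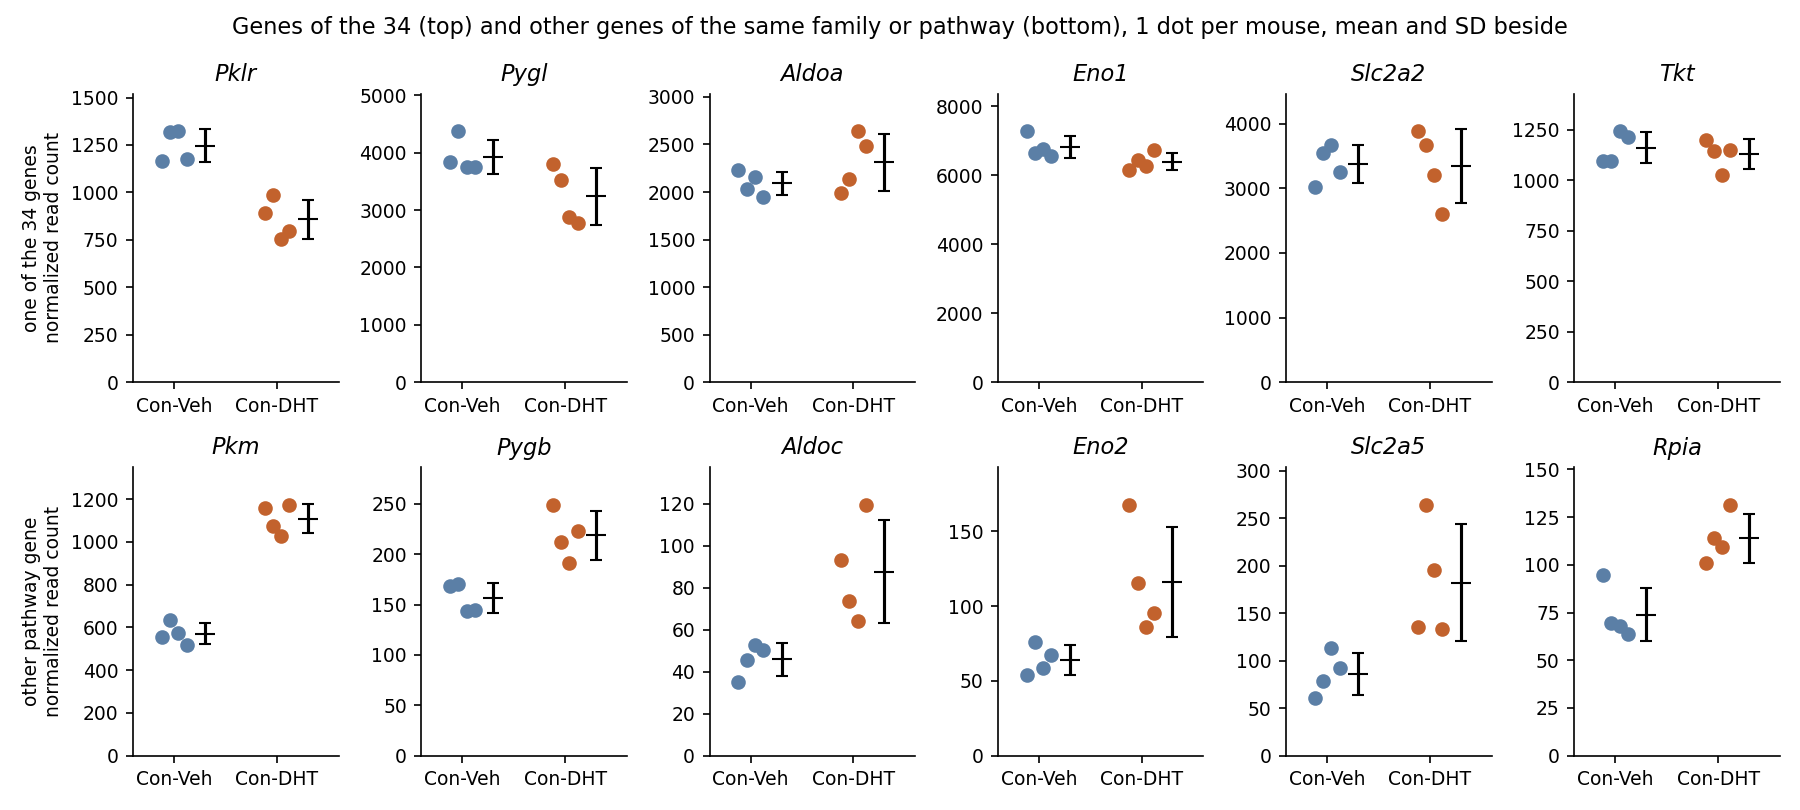
Normalized read counts (vertical axes from 0) of 6 of the 34 genes (top row) and of 6 other genes of the same family or pathway that passed the test (bottom row), 1 dot per mouse, Con-Veh in blue and Con-DHT in orange, with the mean and SD of 4 mice. Pklr is lower and Pkm higher in Con-DHT, and in the other 5 columns the bottom gene is higher in Con-DHT.

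The remaining changed genes were Rpia, Nhlrc1, Hk3 and Mpc1. Rpia, the ribose-5-phosphate isomerase of the pentose phosphate pathway, had means of 73.9 in Con-Veh against 114 in Con-DHT, with a limma adjusted p of 0.0361. Nhlrc1, the ubiquitin ligase malin that acts on glycogen-bound proteins, had means of 23.9 in Con-Veh against 49.9 in Con-DHT (adjusted p of 0.0318). Hk3, a hexokinase of blood cells, fell from a mean of 124 to 68.2 (adjusted p of 0.017), beside the lower macrophage markers given above, whose part was not tested. Mpc1, a subunit of the mitochondrial pyruvate carrier, had means of 2139.7 in Con-Veh against 1684 in Con-DHT (adjusted p of 0.0296). By limma, Pkm and Hk3 passed the test without any of the 8 libraries. Slc2a5 and Tkfc passed in 3 of 8 such fits, Aldoc, Mpc1 and Pygb in 2, and Eno2, Rpia and Nhlrc1 in 1, with adjusted p no higher than 0.103 and the same direction in every fit. Under spike-in scaling Slc2a5, Aldoc, Pkm and Nhlrc1 passed and the other 6 did not.

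Of the 59 other listed genes that did not pass by limma, 3 passed by DESeq2, all higher in Con-DHT. These were Ppp1r3g, Slc25a13, a mitochondrial aspartate and glutamate carrier, and Pdp2, a phosphatase that switches pyruvate dehydrogenase on. Slc25a13 had means of 4090 in Con-Veh against 5021 in Con-DHT, with adjusted p of 0.0539 by limma and 0.00918 by DESeq2. Pdp2 had means of 750 in Con-Veh against 1025 in Con-DHT, with adjusted p of 0.0935 by limma and 0.0403 by DESeq2. Gys1, the muscle form of glycogen synthase, had means of 94.5 in Con-Veh against 113 in Con-DHT and a limma adjusted p of 0.33. Ppp1r3g, a phosphatase subunit of the same family as Ppp1r3b, had means of 57.5 in Con-Veh against 144 in Con-DHT, which gave a log2 fold change of 1.38 and an adjusted p of 0.0837 by limma and 0.01 by DESeq2. H6pd, the microsomal counterpart of G6pdx, had an interval of -0.20 to 0.26. Pgls and Pgd, whose enzymes act after that of G6pdx in the oxidative branch, had intervals of -0.31 to 0.03 and -0.08 to 0.26.

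Regulators of these genes were examined from a separate list. None of 12 hormone receptors and transcription factors passed the test by limma or edgeR, 2 had an unadjusted limma p of at most 0.05, and 1, Creb3l3, passed by DESeq2. Mlxipl, which encodes ChREBP, the factor that binds the carbohydrate response element, had means of 7372 ± 1044 in Con-Veh against 5849.9 ± 826 in Con-DHT (SD, n = 4), with an interval of -0.62 to -0.05 and a limma adjusted p of 0.154. Srebf1, an insulin-responsive factor, had means of 2145 in Con-Veh against 1519.9 in Con-DHT and an adjusted p of 0.305 by limma. The glucagon receptor (Gcgr), the insulin receptor (Insr) and the glucocorticoid receptor (Nr3c1) had intervals of -0.13 to 0.23, -0.04 to 0.32 and -0.21 to 0.39. Of 10 genes known to rise with fasting, 1 passed the test: Cpt1a, which admits fatty acids to the mitochondrion, had means of 11059 in Con-Veh against 15654 in Con-DHT and a limma adjusted p of 0.0119. The study picked Cpt1a for qRT-PCR of the liver as one of the genes that were significant in its RNA-seq. By qRT-PCR it reported Cpt1a as not changed by DHT. The summed values of the 10 ranged from 89772 to 127004 in Con-Veh and from 111075 to 118968 in Con-DHT, so that the groups overlapped.

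Position along the liver lobule was read from 2 further marker lists. None of 6 periportal and none of 6 pericentral markers passed by limma or edgeR. At an unadjusted limma p of at most 0.05 there were 3 and 1, and DESeq2 had 1 in each list, Cyp2f2 and Lgr5. The log2 fold changes of the 3 periportal markers were 0.86 for Cyp2f2, -0.41 for Hal and -0.27 for Sds, and that of the pericentral Lgr5 was -0.61. The lists had sums of 53301 to 73652 and 59920 to 74202 for the periportal and of 183394 to 219909 and 181327 to 245001 for the pericentral list, Con-Veh before Con-DHT. These sums consist mostly of 1 gene each, Ass1 and Cyp2e1, with Con-Veh means of 44308 and 156070, so they say little about the other markers. Stellate cell and fibroblast markers (0 of 7), cholangiocyte markers (0 of 5 tested) and Ptprc, the 1 lymphocyte and neutrophil marker tested, did not pass by any of the 3 tools, and 1, 0 and 1 of them had an unadjusted limma p of at most 0.05. The lists outside the 34 genes lacked Hkdc1, Slc2a10, Ppp1r3d and Phkg1 of the pathway genes and, among others, Cftr, Cd3e, Cd79a, Nkg7, S100a8 and S100a9 of the markers, which were not analysed here.

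Mouse-to-mouse variation within the groups tied some of these genes together. After each group was centred on its own mean, the log2 values of Gys2 over the 8 libraries followed those of Ugp2 most closely (Pearson r = 0.943), those of Pklr followed Pdha1 (0.942), those of Gckr followed Gpi1 (0.82), those of G6pdx followed Pfkfb3 (0.81) and those of Ppp1r3b followed Mdh1 (0.628). These are descriptions over 8 libraries that share size factors, each the highest of 33 comparisons.

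**Figure D5:**
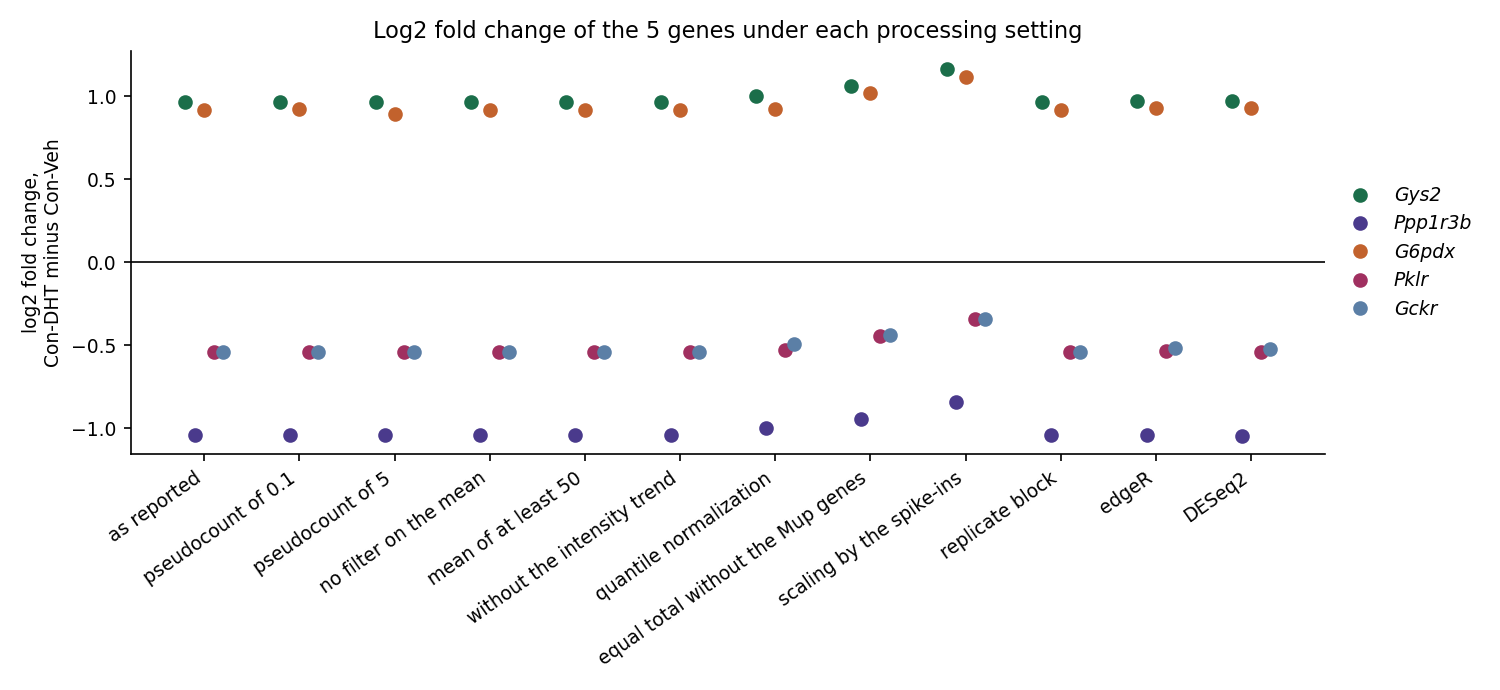
Log2 fold change (Con-DHT minus Con-Veh, vertical axis) of Gys2, Ppp1r3b, G6pdx, Pklr and Gckr as reported and under 11 other processing settings (horizontal axis), from the same 8 libraries, with the dots of a setting set side by side. Each gene keeps its side of 0 in all of them, and all 5 move upward together under spike-in scaling.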

How the data were processed

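RNA-seq of the liver in 8 female mice was used, 4 per group, which were set by the treatment label, with replicate numbers from the labels. According to the supplemental methods, the authors added ERCC spike-in RNA, trimmed with Trimmomatic and aligned with STAR against the mouse genome from Ensembl. Exonic reads with a unique position were counted by featureCounts, and DESeq2 was used for normalization and testing. The submitters' processing notes name GRCm39. The deposited values are a normalized signal, that is, reads per gene that the authors divided by 1 size factor per library. Each library is made of whole multiples of its smallest step (100% of the values, within 0.01 reads), and these recovered reads served only for edgeR and DESeq2. Library preparation before sequencing was not stated to keep strand, so overlapping antisense transcripts cannot be told apart.

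The main test was limma 3.58.1 (two-sided, moderated by eBayes along an intensity trend) on log2(value + 1) for the 14312 genes with a mean of at least 10, with Benjamini-Hochberg adjustment over all of them. Fold changes are on that log2 scale. The linear ratio is that of the group means. Alternatives were pseudocounts of 0.1 and 5, no filter, a mean of at least 50, no trend, 3 other scalings, a replicate block, edgeR 4.0.16 and DESeq2 1.42.0 on recovered reads, and leaving out each library. The scripts were tested on simulated data. Spreads are SDs over mice. The limma p-values weigh the difference between the groups against the variation between these mice, moderated across genes. Replicates differed by more than counting error (chi-square per degree of freedom of 19.2 to 61.6 over 12 pairs), so no library was counted as a duplicate.

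Symbols came from a table of Ensembl IDs (14287 of 14317 genes matched), and positions and exon lengths from GENCODE M21 on GRCm38, matched by gene ID. Promoters came from RefSeq (GRCm38.p6). Of the 5 changed genes, 3 had a promoter there. All 34 genes are accounted for. Values of every mouse are given for those of the 34 that passed a test by any tool, that had groups without overlap, or that belong to regulated steps (Slc2a2, Gckr, G6pc, Khk, Pfkfb1, Fbp1, Pklr, Pcx, Pck1, Gys2, Pygl). Other pathway genes are named where limma called them, at most 10, and a few were named after their values were seen. The genes, lists and tests were chosen with earlier results of these data known. Transferrin was listed as Tf and read under its mouse symbol, Trf.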

Additional observations from a re-analysis of the deposited data

Results flagged for a closer look

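In each of the 68 sets of 4 mice (34 genes in 2 groups), the lowest and the highest mouse were compared with the rest of their group by Dixon's ratio of gap to range. In 2 sets a mouse stood apart, where chance alone would give 3.4. Gpd1 in Con-Veh replicate 3 was at 5557, with the next mouse at 7228 and the highest at 7391. Pygl in Con-Veh replicate 2 was at 4377, with the next mouse at 3831 and the lowest at 3746. Neither gene passed the limma test.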

How the results depend on the processing

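Each of the 5 changed genes kept its direction under all 11 other settings and all 8 fits without 1 library. Gys2 and G6pdx passed in every fit, and Ppp1r3b and Pklr in all but spike-in scaling. Gckr also failed without the intensity trend (limma adjusted p of 0.0665) and without some libraries. Of the 34 genes, 3 were lower as reported and 0 under spike-in scaling. Of the other pathway genes, 3 were lower as reported, 1 without the trend or with an equal total without the Mup genes, and 0 with spike-ins. Without 1 library, 1 to 5 of them were higher (7 as reported) and 1 to 2 lower. Over all genes, 658 were higher and 374 lower as reported, 1082 and 208 with an equal total without the Mup genes, 562 and 75 with spike-ins, 358 higher with a mean of at least 50, 646 lower by DESeq2, and 177 to 316 lower without 1 library. The cause of these moves was not tested.

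The replicate numbers did not pair the mice (same-number correlations of -0.19, -0.01, -0.02 and -0.08), and the replicate block gave 249 lower genes over the whole table, lost Gckr (adjusted p of 0.0609) and added Pfkfb3 (0.0421). With an equal total without the Mup genes Pdha1 passed (0.0494).

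Reversals were seen in 17 of the 34 genes and in no gene whose reported log2 fold change was over 0.18 in size. With spike-ins, before the shift of all genes is taken off, log2 fold changes turned to 0.17 for Slc2a2, 0.018 for Khk, 0.041 for Gpi1, 0.097 for Pfkl, 0.12 for Tpi1, 0.11 for Eno1, 0.082 for Ldha, 0.18 for Pdk2, 0.15 for Pcx, 0.16 for Tkt, 0.091 for Ugp2, 0.019 for Ppp1r3c, 0.042 for Phka2. With an equal total without the Mup genes they turned to 0.072 for Slc2a2, 0.021 for Tpi1, 0.0075 for Eno1, 0.077 for Pdk2, 0.049 for Pcx, 0.058 for Tkt, and with quantile normalization to 0.030 for Slc2a2, 0.015 for Pdk2. Without 1 library, ranges spanned 0 for Slc2a2 (-0.10 to 0.088), G6pc (-0.17 to 0.22), Tpi1 (-0.12 to 0.0021), Pgam1 (-0.019 to 0.031), Ldha (-0.29 to 0.036), Pdk2 (-0.12 to 0.045), Pcx (-0.099 to 0.023), Mdh1 (-0.025 to 0.088), Tkt (-0.070 to 0.0045), Ugp2 (-0.23 to 0.081), Gbe1 (-0.060 to 0.12), the log2 ratio of G6pc to Slc2a2 (-0.098 to 0.30), the log2 ratio of Pfkfb1 to Pfkfb3 (-0.47 to 0.18). The 4 other ratios kept their direction. With 4 mice a group, intervals of genes such as Pfkfb3 and Ugp2 are wide, and changes smaller than these intervals were not detectable.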
